A study of Arabidopsis thaliana with 8 samples.

Results

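The genes described here are the ATG8 family genes ATG8B to ATG8H and ATG3 of Arabidopsis thaliana, read on Affymetrix ATH1 arrays in the freezing-sensitive mutant sfr3 and its wild type, kept warm or in the cold. Each is 1 probe set, and together they are 8 of the 13356 genes that the annotation used here paired with a probe set. All 8 were also among the 13648 probe sets bright enough to be tested. They were chosen by the measured values of these same arrays: ATG8E was among the largest falls in cold sfr3, and its relatives and ATG3 were taken with it. Their differences are therefore given as descriptions with standard errors or intervals, with no p-value for any single member, and the counts of members called are given beside the same share of all probe sets tested.

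Each of the 4 groups (wild type warm, wild type cold, sfr3 warm, sfr3 cold) had 2 arrays, replicates 1 and 2. The wild type was Col-0, and sfr3 was a line made in Col-0 by ethyl methanesulfonate mutagenesis, with the allele sfr3-1 named in the study's title. All groups had 48 h of seed treatment at 4 °C and then grew in short days (8 h light, 16 h dark) at 20 °C in 70% humidity, to growth stage 1.14. Every sample, the cold ones included, is labelled as collected after 38 days at 20 °C, and how cold the cold groups were kept, and for how long, is not stated there. The wild type is described as the entire rosette and sfr3 as the aerial parts, so what was collected and the genotype cannot be told apart. The labels do not say whether the 2 replicates of a group were separate plantings, so errors and p-values cover only how far these arrays differed, which may be technical.

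Autophagy encloses cytoplasm in a double membrane, the autophagosome, and delivers it to the vacuole, where its contents are broken down and reused. ATG8 is a small ubiquitin-like protein that is attached to the lipid phosphatidylethanolamine in the growing membrane, where it helps the membrane to expand and holds the receptors that bring in cargo. The protease ATG4 trims the end of most ATG8 proteins, ATG7 activates them, ATG3 is the E2-like enzyme that passes them to the lipid, and a complex of ATG12, ATG5 and ATG16 directs the last step. In plants the family is large, and carbon or nitrogen starvation, darkness and senescence are known to raise many of its transcripts.

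One array stood apart, and many differences in cold sfr3 are also given without it. The limma fit shares its estimate of the spread over all 8 arrays, so wild-type errors, intervals and calls depend on this array too. On sfr3 cold replicate 1 the median signal was 52.4, against 36.6 to 39.0 on the other 7 arrays, and the background level was 35.4, against 6.37 to 11.3. This level is the 95th percentile, on each array, of bacterial control probes that should stay dark. Its spiked hybridisation controls were at 5.75 times the median of the other arrays, where the others lay between 0.560 and 1.21 times. The actin 3′ to 5′ signal ratio of sfr3 cold replicate 1 was 1.38, against 2.04 to 4.69 on the others. The ratio of 4.69 was that of sfr3 warm replicate 1 alone, and the next highest was 2.84, on wild type warm replicate 2. Between the replicates of cold sfr3 the median difference was 0.723 on the log2 scale, and in the other groups it was 0.244 to 0.299. Of the tissue markers, the 2 of 8 green tissue genes that the annotation used here paired with a probe set summed to 12493 to 16987 in warm wild type, 12248 to 12758 in cold wild type, 13156 to 14334 in warm sfr3 and 16004 to 16598 in cold sfr3, and none of the 6 flower markers was paired with a probe set. The 2 of 8 root genes so paired summed to 151 to 208 in warm wild type, 54.0 to 57.3 in cold wild type, 205 to 208 in warm sfr3 and 65.1 to 205 in cold sfr3. The higher sum in cold sfr3 was that of replicate 1.

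The first question was how the transcripts differed between cold and warm plants of each genotype. In the cold most of the family was lower: ATG8E by 13.3-fold and ATG8H by 7.19-fold in wild type, ATG8F, ATG8C and ATG8B by 2.55-fold, 2.48-fold and 2.02-fold, and the other members by less. In sfr3 the same ratios of warm to cold means were 30.1 for ATG8E, 6.33 for ATG8H, 2.90 for ATG8F, 2.83 for ATG8C and 1.84 for ATG8B. The ratios of ATG8E and ATG8H rest on sfr3 cold replicate 1, where both were under the background level, and were 18.8 and 3.69 without it. ATG8D was the exception, with its 2 cold sfr3 arrays above its 2 warm ones. In whole aerial tissue, fewer cells that express a gene and less RNA per cell cannot be told apart.

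**Figure D1:**
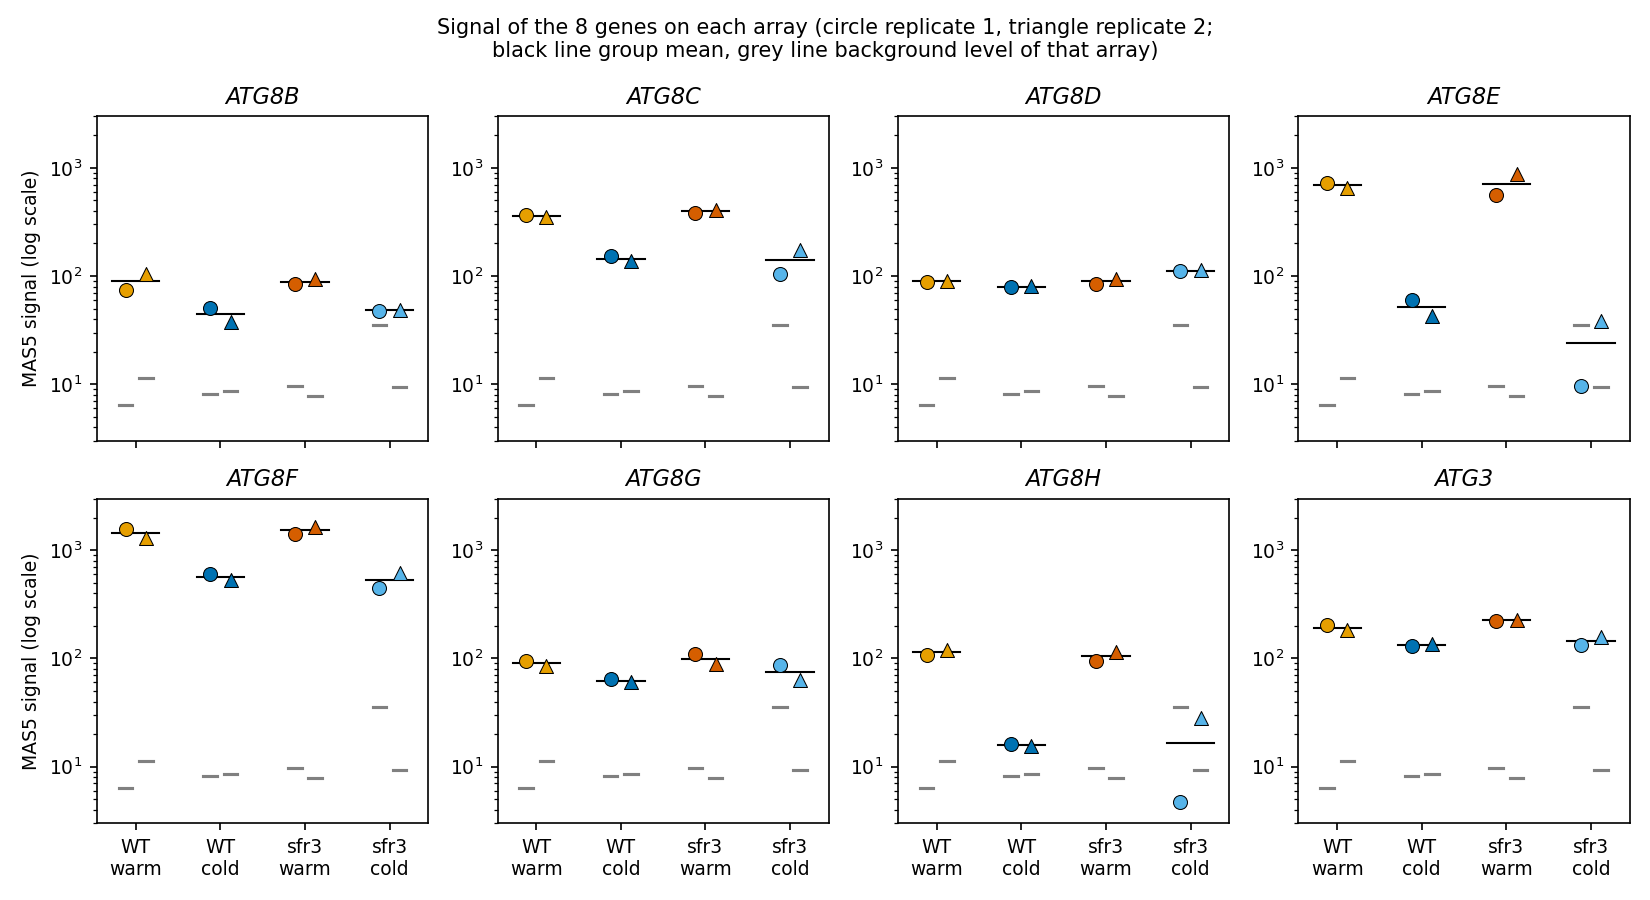
MAS5 signal (log scale, arbitrary units) of the 8 genes on each array; circles are replicate 1, triangles replicate 2, black lines group means and grey lines the background level of each array. ATG8E and ATG8H spread widest, and on sfr3 cold replicate 1 both are under a background level of 35.4.

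ATG8A, ATG8B, ATG8C and ATG8D form one clade of the family. ATG8B (AT4G04620) gave signals of 74.7 and 104 in warm wild type, 50.9 and 37.7 in cold wild type, 84.3 and 93.4 in warm sfr3, and 47.5 and 49.0 in cold sfr3, naming replicate 1 first here and below. All 4 warm arrays were above all 4 cold ones, and the genotypes overlapped at both temperatures. On the log2 scale, taken after adding 2.17 to each signal, the cold difference was -0.98 (SE 0.28) in wild type and -0.85 (SE 0.28) in sfr3, both from limma's fit of all 8 arrays.

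ATG8C (AT1G62040) gave 365 and 355 in warm wild type, 153 and 137 in cold wild type, 380 and 412 in warm sfr3, and 104 and 176 in cold sfr3. Warm and cold arrays did not overlap, and the only wide gap between replicates was in cold sfr3, where replicate 1 was the lower. The log2 difference in the cold was -1.30 (SE 0.25) in wild type and -1.53 (SE 0.25) in sfr3, and -1.16 in sfr3 without cold replicate 1.

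ATG8D (AT2G05630) stood out by how little it moved: 88.9 and 89.3 in warm wild type, 79.1 and 80.5 in cold wild type, 84.0 and 94.3 in warm sfr3, and 111 and 113 in cold sfr3. The cold wild-type arrays were lowest and the cold sfr3 arrays highest, with the 4 warm arrays between them. The log2 difference was -0.16 in wild type (95% interval -0.63 to 0.32) and 0.32 in sfr3 (95% interval -0.15 to 0.80), so both intervals include 0. The sfr3 value was 0.34 without cold replicate 1 and 0.08 with each array centred on its median.

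ATG8E, ATG8F and ATG8G form another clade. ATG8E (AT2G45170) had the widest range of the 8 genes, with 724 and 654 in warm wild type, 60.1 and 43.1 in cold wild type, 561 and 873 in warm sfr3, and 9.56 and 38.1 in cold sfr3. Every cold array was far under every warm one, and the 2 cold sfr3 arrays were the lowest. The lower of these, replicate 1, lay under that array's background level of 35.4, so only 1 of the 2 cold sfr3 arrays measured the gene.

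The log2 difference of ATG8E in the cold was -3.70 in wild type (SE 0.49, 95% interval -4.80 to -2.60), and 0.711% of all tested probe sets were lower by more. In sfr3 it was -5.01 (SE 0.49, 95% interval -6.12 to -3.91), with 0.139% lower by more. Without sfr3 cold replicate 1, the array under background, the sfr3 value was -4.12, with 0.535% lower by more. The wild-type value lay between -3.93 and -3.39 under the 16 alternative settings. Several of these, such as leaving out an sfr3 array, cannot move it.

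ATG8F (AT4G16520) gave 1583 and 1310 in warm wild type, 610 and 527 in cold wild type, 1430 and 1645 in warm sfr3, and 446 and 614 in cold sfr3. The genotypes overlapped at each temperature, and the lowest warm array was well above the highest cold one. Its log2 difference was -1.34 (SE 0.21) in wild type and -1.55 (SE 0.21) in sfr3, and -1.32 in sfr3 without cold replicate 1.

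ATG8G (AT3G60640) changed less than its clade relatives. Its signals were 95.4 and 85.3 in warm wild type, 64.1 and 60.8 in cold wild type, 110 and 88.1 in warm sfr3, and 86.8 and 63.1 in cold sfr3. Warm and cold did not overlap within a genotype, though in sfr3 the gap was 86.8 against 88.1. The log2 difference was -0.52 (95% interval -1.09 to 0.06) in wild type and -0.40 (95% interval -0.97 to 0.17) in sfr3, and -0.62 in sfr3 without cold replicate 1.

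ATG8H and ATG8I form the last clade, whose proteins end in an exposed glycine and need no trimming by ATG4. ATG8H (AT3G06420) gave 107 and 121 in warm wild type, 16.2 and 15.6 in cold wild type, 95.0 and 115 in warm sfr3, and 4.71 and 28.4 in cold sfr3. All cold arrays were far below all warm ones, but the 2 cold sfr3 arrays lay on either side of both cold wild-type arrays, and replicate 1 was again under its background level. The log2 difference was -2.69 in wild type (SE 0.60, 95% interval -4.04 to -1.33) and -2.88 in sfr3 (SE 0.60, 95% interval -4.23 to -1.52), and -1.80 in sfr3 without cold replicate 1. Of all tested probe sets, 1.84% in wild type were lower by more, and in sfr3 1.73% with all arrays and 4.65% without cold replicate 1.

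ATG3 (AT5G61500), the conjugating enzyme, gave 204 and 182 in warm wild type, 131 and 137 in cold wild type, 224 and 227 in warm sfr3, and 134 and 159 in cold sfr3. Warm and cold did not overlap in either genotype, and the warm sfr3 arrays were the highest. Its log2 difference of -0.51 (SE 0.19, 95% interval -0.94 to -0.09) in wild type and -0.62 (SE 0.19) in sfr3 was smaller than those of ATG8E, ATG8H, ATG8F, ATG8C and ATG8B. The sfr3 value was -0.50 without cold replicate 1.

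Counted at an adjusted p below 0.05 in limma over all probe sets tested, 5 of the 8 genes were called lower in cold wild type (ATG8B, ATG8C, ATG8E, ATG8F and ATG8H), where 13.3% of all tested probe sets were called lower and 13.0% higher. In cold sfr3 the same 5 and ATG3 were called lower, 6 of 8, where 16.4% of all tested were called lower and 14.9% higher. No member was called higher in either genotype. By overlap, all 8 genes had both cold wild-type arrays under both warm ones, as had 37.4% of all tested. In sfr3, 7 of 8 were non-overlapping and lower, against 30.3% of all tested, and ATG8D was non-overlapping and higher, as were 33.3% of all tested. The median log2 difference of the 8 genes was -1.14 in wild type and -1.19 in sfr3, beside -0.00 and 0.06 over all tested. Because the genes were picked on this contrast, nothing is read from these counts. ATG3 and ATG8G, not called in cold wild type, were called lower there with array weights and with only the wild-type groups fitted. The sfr3 calls of ATG3 and ATG8B were lost with array weights and with only the sfr3 groups fitted. Both arrays of a group got the same weight, 0.23 each in cold sfr3, so the weights did not single out replicate 1. The calls of ATG8E and ATG8F held in both genotypes under all 16 alternatives, whereas ATG8H lost its call in 4 of 16 in wild type, each without 1 wild-type array, and in 1 of 16 in sfr3. ATG8C lost its call in 1 of 16 in wild type. ATG8B was called in 7 of 16 in wild type and 6 of 16 in sfr3, and ATG3 in 5 of 16 in sfr3. Leaving out any 1 wild-type array gave 2 or 3 members called in wild type, and leaving out sfr3 warm replicate 2 gave 3 in sfr3.

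**Figure D2:**
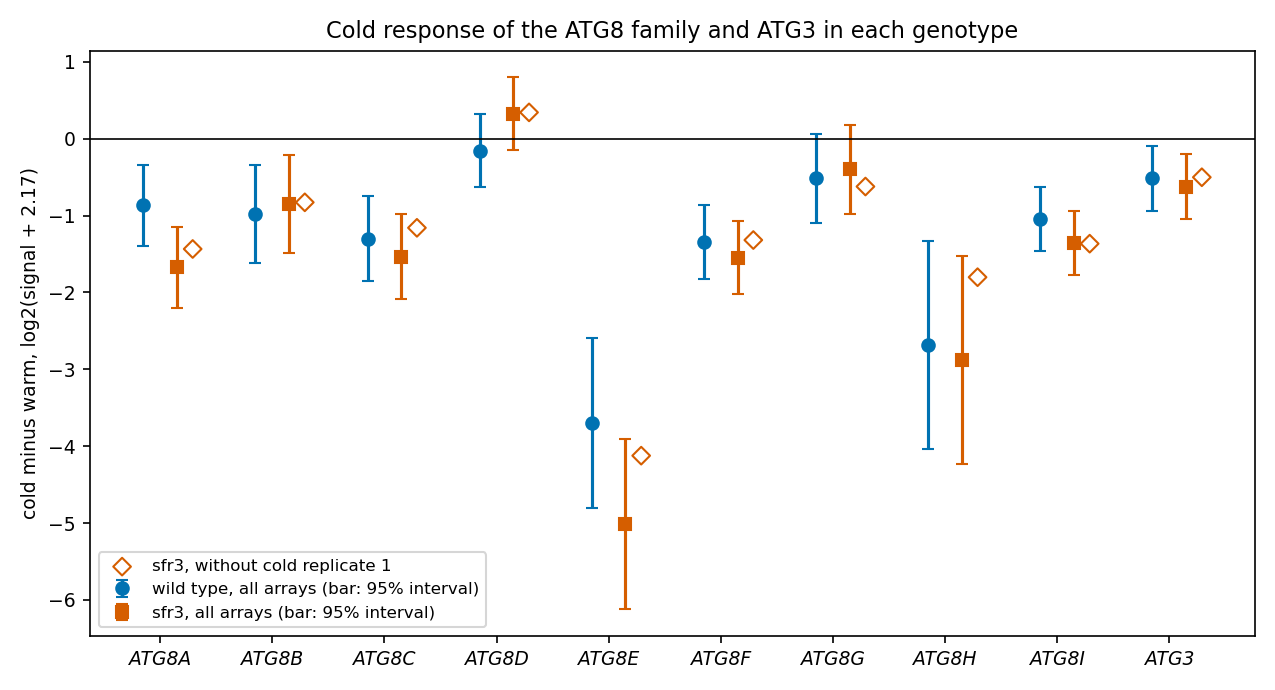
Cold minus warm difference on the log2(signal + 2.17) scale for the 9 ATG8 genes and ATG3, in wild type (circles) and sfr3 (squares), with 95% intervals from limma; open diamonds are sfr3 without cold replicate 1. ATG8E and ATG8H lie lowest, and the intervals of ATG8D and ATG8G include 0 in both genotypes.

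The second question was whether the mutation changed these transcripts at a given temperature. In the warm the genotypes were close, with sfr3 minus wild type between -0.12 for ATG8H and 0.22 for ATG3 on the log2 scale. ATG3 (0.22, 95% interval -0.20 to 0.65) and ATG8C (0.13, 95% interval -0.42 to 0.69) had both warm sfr3 arrays above both warm wild-type arrays. These were 2 of 8, where 14.2% of all tested were non-overlapping and higher. No member was called by limma, and 0% of all tested probe sets were. At an unadjusted p below 0.05 there were 0 members and 102 of all tested.

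In the cold, ATG8D was the one gene with both sfr3 arrays above both wild-type arrays, with means of 112 ± 1.92 against 79.8 ± 0.964 (SD, n = 2 each) and a log2 difference of 0.48 (95% interval 0.01 to 0.95). ATG8E was the one gene with both sfr3 arrays below, with means of 23.8 against 51.6 (n = 2 each) and a log2 difference of -1.29 (95% interval -2.39 to -0.18). Without sfr3 cold replicate 1 the ATG8E value was -0.40, and that of ATG8D was 0.50. With each array centred on its median they were -1.54 for ATG8E and 0.23 for ATG8D. Non-overlapping and higher probe sets were 20.7% of all tested, and lower ones 21.2%.

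The other 6 genes overlapped between cold genotypes, with differences between -0.31 for ATG8H and 0.24 for ATG8G. ATG8H turned from -0.31 to 0.76 without sfr3 cold replicate 1, ATG8C from -0.10 to 0.28 and ATG8F from -0.11 to 0.11. So for these genes the sign of the genotype difference in the cold rested on that array. With each array centred on its median, the differences of ATG3 (-0.14), ATG8B (-0.12) and ATG8G (-0.01) were below 0 too, where the same centring moved the median of all tested from -0.01 to -0.26. No member was called by limma, with 0.125% of all tested called, and 2 members and 1775 of all tested had an unadjusted p below 0.05.

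**Figure D3:**
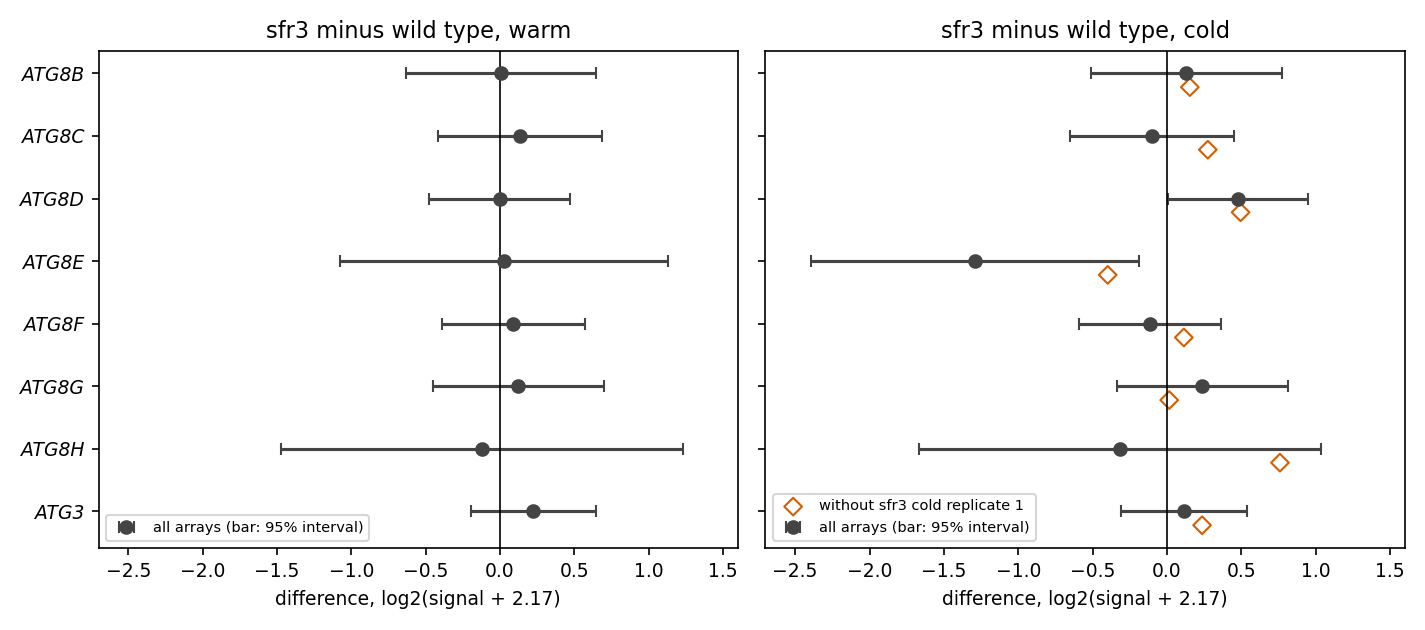
Difference sfr3 minus wild type on the log2(signal + 2.17) scale for the 8 genes, in the warm (left) and in the cold (right), with 95% intervals from limma; open diamonds leave out sfr3 cold replicate 1. All warm intervals include 0, and in the cold only those of ATG8D (0.48) and ATG8E (-1.29) do not.

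The third question was whether the cold response itself differed between genotypes, which the interaction term gives as the log2 cold difference in sfr3 less the one in wild type. It was -1.31 for ATG8E (95% interval -2.88 to 0.25) and -0.42 without sfr3 cold replicate 1. For ATG8D, which pointed down in wild type and up in sfr3, it was 0.48 (95% interval -0.19 to 1.15), and 0.17 with each array centred on its median. ATG8H gave -0.19 with all arrays and 0.88 without sfr3 cold replicate 1. The other 5 genes lay between -0.23 for ATG8C and 0.13 for ATG8B, and all 8 intervals included 0. Without that array the sign also turned for ATG3 (0.01), ATG8C (0.14), ATG8F (0.02) and ATG8G (-0.11). None of the 8 was called by limma, with 0.0366% of all tested called. At an unadjusted p below 0.05 there were 0 members and 803 of all tested.

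Across the 4 groups the range of group means on the log2 scale was 5.01 for ATG8E, 3.00 for ATG8H, 1.55 for ATG8F, 1.53 for ATG8C, 0.98 for ATG8B, 0.74 for ATG3, 0.64 for ATG8G and 0.48 for ATG8D. Without sfr3 cold replicate 1, which was under background for the first 2 of these, the range was 4.12 for ATG8E and 2.69 for ATG8H. In the order of group means, both warm groups were above both cold groups for 7 genes, and only for ATG8D was a cold group, cold sfr3, the highest. For ATG8B, ATG8F and ATG8H, neighbouring groups differed beyond their overlap only between warm and cold. ATG8G had no neighbouring pair of groups that was free of overlap.

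The likeness of patterns was measured as the root mean square difference of log2 signals after each gene was centred on its own mean over the 8 arrays. ATG8C and ATG8F, which belong to different clades, were the closest pair of the family at 0.0989, and at 0.0929 without sfr3 cold replicate 1. ATG8D and ATG8E were the farthest apart at 2.35. Among the 7336 tested probe sets paired with 1 gene, the 5 nearest to ATG8E were AT3G62950 (0.251), AT1G62510 (0.294), AT1G62480 (0.420), IVD (0.468) and AT3G49790 (0.468). IVD encodes isovaleryl-CoA dehydrogenase, a mitochondrial enzyme of leucine breakdown. The 5 nearest to ATG8H were AT1G19020 (0.220), AT5G03230 (0.268), AT2G18690 (0.292), CCL (0.304) and AT2G01100 (0.309). Without sfr3 cold replicate 1, AT1G62510 was the 1 gene of the 5 to stay for ATG8E and AT2G18690 the 1 for ATG8H, so these neighbours rest largely on that array.

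The other genes of the pathway come from lists drawn up with earlier results of these data known, and those named were mostly picked for being called, so their p-values are not independent evidence. The 2 other family genes, ATG8A and ATG8I, were both called lower in the cold, as were 13.3% of all tested in wild type and 16.4% in sfr3. ATG8A (AT4G21980) gave 281 and 219 in warm wild type, 144 and 126 in cold wild type, 290 and 338 in warm sfr3, and 81.6 and 115 in cold sfr3. It fell by 0.87 on the log2 scale in wild type (SE 0.23, limma adjusted p = 0.0226) and by 1.67 in sfr3 (SE 0.23, limma adjusted p = 9.22e-04). The wild-type call was lost in 6 of 16 alternatives, among them the omission of any wild-type array, with adjusted p up to 0.178.

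ATG8I (AT3G15580) gave 809 and 914 in warm wild type, 471 and 365 in cold wild type, 931 and 999 in warm sfr3, and 377 and 373 in cold sfr3. It fell by 1.05 on the log2 scale in wild type (SE 0.18, limma adjusted p = 0.00307) and by 1.36 in sfr3 (SE 0.18, limma adjusted p = 8.15e-04). Its wild-type call was lost without wild type cold replicate 2 (limma adjusted p = 0.0535). Of the 9 family genes, ATG8D was then the one whose cold arrays were not below the warm ones in both genotypes.

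Of 43 listed autophagy genes that are not among the 8, 13 were matched to a probe set by the annotation used here and 11 of these were tested. The 11 include ATG8A and ATG8I, which are thus counted again here. In cold wild type 3 were called lower (ATG8A, ATG8I and ATG16) and 0 higher, beside 13.3% and 13.0% of all tested. The median log2 difference was -0.48, with 10 of 11 below 0, beside a median of -0.00 over all tested. In cold sfr3 the same 3 and ATG1C, 4 in all, were called lower and 0 higher, beside 16.4% and 14.9% of all tested. The median was -0.83, with 9 of 11 below 0, beside 0.06 over all tested. The count of 3 was 1 without wild type cold replicate 2 and 5 without sfr3 cold replicate 2, and the count of 4 was 2 without either sfr3 warm array and 7 without sfr3 cold replicate 1. ATG16, of the complex that directs lipidation, was at 171 and 183 in warm wild type and 80.6 and 70.3 in cold wild type, a fall by 1.21 on the log2 scale (SE 0.20, limma adjusted p = 0.00230). It fell by 0.94 in sfr3 (SE 0.20, limma adjusted p = 0.00775), a call lost in 4 of 16 alternatives. ATG4B, the trimming protease, was not called, at -0.32 in wild type and -0.30 in sfr3.

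ATG1C, a kinase gene of the initiating complex, fell by 0.95 in sfr3 (limma adjusted p = 0.0425), but in 10 of 16 alternatives the call was lost, and it was not called in wild type (-0.18). Its other, dimmer probe set pointed the other way in sfr3 (0.82), and at -0.04 without sfr3 cold replicate 1. VPS38, of the phosphatidylinositol 3-kinase complex, was the one gene above 0 in both genotypes, at 0.54 and 0.88, and was not called. Its sfr3 value was 0.40 without sfr3 cold replicate 1. No tested non-member was called in either genotype comparison or in the interaction by limma, and at an unadjusted p below 0.05 there were 0 in the warm, 0 in the cold and 1 in the interaction. None of the 10 listed genes of ATG9, ATG2 and ATG18 membrane supply and none of the 8 dark-inducible genes was paired with a probe set.

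**Figure D4:**
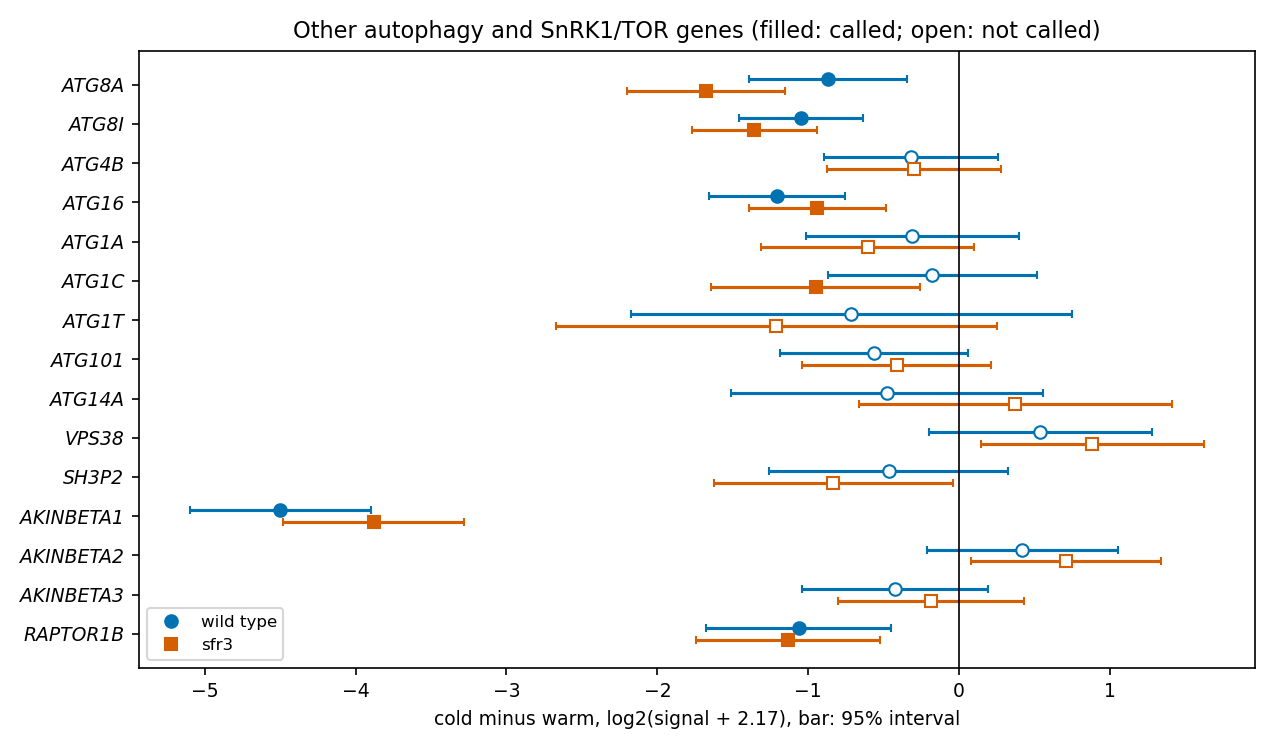
Cold minus warm difference on the log2(signal + 2.17) scale, with 95% intervals from limma, of tested autophagy genes other than the 8 and of SnRK1 and TOR kinase subunits, in wild type (circles) and sfr3 (squares); filled symbols are called at an adjusted p below 0.05. ATG8A, ATG8I, ATG16, RAPTOR1B and AKINBETA1 are called lower in both genotypes, with AKINBETA1 lowest at -4.50 and -3.88.

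The kinases SnRK1 and TOR are the known energy and nutrient sensors that switch autophagy on and off. Of their 10 listed subunit genes 4 were tested, of which 2 were called lower and 0 higher in each genotype. Of all tested, 13.3% were called lower in wild type and 16.4% in sfr3. AKINBETA1, a regulatory subunit of SnRK1, was at 1102 and 1288 in warm wild type and 50.4 and 50.7 in cold wild type, and at 1109 and 1231 in warm sfr3 and 105 and 56.7 in cold sfr3. It fell by 4.50 on the log2 scale in wild type (SE 0.27, limma adjusted p = 1.4e-05). In sfr3 it fell by 3.88 (SE 0.27, limma adjusted p = 2.4e-05), and both calls held in all 16 alternatives. RAPTOR1B, the substrate-binding partner of TOR, fell by 1.06 in wild type (limma adjusted p = 0.0185) and by 1.13 in sfr3 (limma adjusted p = 0.0131). These calls were lost in 6 and 3 of 16 alternatives. Of the tested subunits not called, AKINBETA2 was at 0.42 in wild type and 0.71 in sfr3, and AKINBETA3 at -0.42 and -0.19. RAPTOR1A, too dim to be tested, was above 0 in both genotypes, at 1.17 and 2.91. Its signal was under background on both warm sfr3 arrays and on wild type warm replicate 2.

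Of 8 listed leaf senescence genes 2 were tested, and 1 was called lower in each genotype, as were 13.3% of all tested in wild type and 16.4% in sfr3. This was the transcription factor gene WRKY53, whose sfr3 value was -1.04 without cold replicate 1. On that array WRKY53 gave 9.11, under the background level of 35.4, against 48.1 on sfr3 cold replicate 2. It fell by 2.48 in wild type (limma adjusted p = 0.0124) and by 2.12 in sfr3 (limma adjusted p = 0.0225). These calls were lost in 5 and 3 of 16 alternatives. The other, SAG29, was not called, at -1.38 in wild type and 1.15 in sfr3, where both cold arrays were above both warm ones. The root marker PYK10, a beta-glucosidase of endoplasmic reticulum bodies, also fell in the cold, by 2.33 in wild type (limma adjusted p = 0.00342) and by 1.55 in sfr3 (limma adjusted p = 0.0218). The sfr3 value was -2.27 without cold replicate 1, and the sfr3 call was lost in 3 of 16 alternatives, with adjusted p up to 0.113. The other root marker, EXPA7, a root hair expansin gene too dim to be tested, pointed the other way, at 12.5 and 18.9 in warm and 25.2 and 25.6 in cold wild type. In sfr3 EXPA7 was under background on both warm arrays and at 93.2 and 25.1 in the cold, the first of these on the array that stood apart. The part of the root markers in the differences of the ATG8 genes was not tested.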

How the data were processed

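The authors deposited linear intensity values, 1 MAS5 signal per probe set and array. Per the submitters' processing notes, MAS5 and GCOS were used, and no version, background or mismatch setting is given. The 64 control probe sets were left out, which left 22746. Signals were put on the log2 scale after adding 2.17, their 10th percentile as deposited by the authors, which understates changes of dim genes, and the 60% with the highest mean signal, 13648, were tested. All 8 arrays were fitted in limma 3.58.1 (R 4.3.3) with a mean per group and an intensity trend, with 4 residual and 5.17 prior degrees of freedom. P-values were two-sided, adjusted by Benjamini-Hochberg, and called below 0.05. Precision is limited by having 2 arrays per group.

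Genes came from the platform annotation and a TAIR10.1 gene table, and 13513 had 1 gene. ATG8A and ATG8I were matched by locus. Binding of a probe set to a related transcript was not tested. The genes, lists and tests were chosen with earlier results of these data known. All 8 genes are named, and of the lists those called in at least 1 comparison. Chosen after their values were seen were ATG4B, VPS38, SAG29, EXPA7, AKINBETA2, AKINBETA3 and RAPTOR1A. RCA and ATG1B were also named, for opposite directions of the cold difference in wild type and sfr3. Of a gene with several probe sets the brightest was used. The 5 nearest genes were named for the 2 members of widest range. Alternatives were other pseudocounts, no filter, median or quantile scaling, array weights, only the groups compared, the replicate number as a term and each array left out. The computation was tested on simulated data with the same spread on every array, which does not cover an array like sfr3 cold replicate 1.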

Additional observations from a re-analysis of the deposited data

Results flagged for a closer look

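For ATG8D both cold arrays were below both warm arrays in wild type and above them in sfr3. The interaction, the log2 cold difference in sfr3 less the one in wild type, was 0.48 (95% interval -0.19 to 1.15) and was not called. With each array centred on its median, the ATG8D interaction was 0.17 and its sfr3 cold difference 0.08. RCA, the Rubisco activase gene among the green tissue markers, also pointed down in wild type and up in sfr3, with an interaction of 0.61 (limma adjusted p = 0.733). After quantile normalization RCA was at -0.33 in sfr3, so that both genotypes pointed down, and the interaction was 0.04. ATG1B, a kinase gene of the initiating complex, showed the same opposite directions with a difference of 0.52. On sfr3 cold replicate 1 its signal of 29.7 was under the background level of 35.4, and the gene was too dim to be among the probe sets tested, so this difference was not tested.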

How the results depend on the processing

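Over 632 repeats of the members' differences under alternative settings, 584 stayed on their side of the adjusted threshold of 0.05 in limma, of which 549 kept their sign and 35 turned it without being called in either fit. Another 36 kept the direction but lost the call, 12 gained it, and no called value changed sign. Some settings, such as leaving out an array of a group not compared, cannot move a difference. The sign was fixed in those repeats, so the count of kept signs is no measure of stability. Leaving out 1 array at a time gave 2 to 7 members called in cold wild type (5 with all arrays) and 3 to 6 in cold sfr3 (6 with all arrays), where omitting wild type cold replicate 2 gave the 2, any other wild-type array gave 3 in wild type, and sfr3 warm replicate 2 gave the 3 in sfr3. Members called by genotype numbered 0 to 0 in the warm, 0 to 2 in the cold and 0 to 2 in the interaction, and the 2 were ATG8E and ATG8H without sfr3 cold replicate 2, which leaves replicate 1 alone in its group and assumes that it varies like the others. Among the other autophagy genes, 1 to 5 were called in cold wild type, 2 to 7 in cold sfr3, 0 to 0 by genotype in the warm, 0 to 3 in the cold and 0 to 2 in the interaction. With array weights, or with only the groups compared, 5 of them were called in cold wild type (3 in the full fit) and 2 in cold sfr3 (4 in the full fit). The cause was not tested. Same-numbered arrays did not deviate together (correlations from -0.0867 to 0.0525). With 2 arrays per group these values cannot tell whether the numbers pair the samples. With a replicate block 5 members were called in cold wild type and 4 in cold sfr3. Centring each array on its median shifted the median of all tested in cold sfr3 from 0.06 to -0.19 and changed the calls from 2028 higher and 2233 lower to 1043 and 2331, and in the interaction the median shifted from -0.00 to -0.31. In cold wild type it changed 1780 and 1814 to 1334 and 1289. ATG8E and ATG8H are limited in cold sfr3 by the background level of replicate 1.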
